A study of Mus musculus with 6 samples.

Results

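The genes described here are Atf4, a transcription factor, and genes known as its targets in stress signalling and amino acid supply, measured in mouse lens capsules after cataract surgery. They were taken by symbol: Ddit3, Trib3, Chac1, Asns, Psat1, Phgdh, Mthfd2, Slc7a11 and Slc7a5 with Atf4 itself, 10 of the 56940 genes counted in each library. Cataract surgery removes the fiber cells through an opening in the capsule and leaves the capsule and its epithelial cells behind. Capsules taken at the time of surgery (0 h) formed one group and capsules taken 5 days later the other, with 3 libraries per group and 5 pooled capsules per library. All mice were wildtype C57BL/6, and their age is not given in the sources used here. The 0 h capsule came from the second eye of a mouse that had undergone surgery on the first eye 5 days before, so the animals of the 0 h group had also had surgery. The labels do not say whether pools of the same number share mice, and p-values measure the spread between these pools.

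ATF4 is made when cells phosphorylate the initiation factor eIF2α, which slows most translation but lets the Atf4 message be translated more. This is the integrated stress response, and kinases that sense amino acid shortage, unfolded protein in the endoplasmic reticulum (ER), double-stranded RNA or lack of heme can start it. ATF4 pairs with C/EBP proteins on a composite site, the C/EBP-ATF response element, and turns on genes for amino acid synthesis, uptake and tRNA charging. RNA counts do not measure eIF2α phosphorylation or ATF4 protein. The lens is known for a high content of glutathione, for which cystine import and serine-derived glycine supply building blocks.

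The core of that element was searched as TGATGNAA on both strands, from 250 bases before to 50 bases after the transcription start (position 0), in RefSeq promoter windows of build GRCm38.p6. A match was present in 4 of the 9 ATF4 program genes with a window, and in 3.97% of all 32851 windows. The genes were chosen as known ATF4 targets, so the share describes them and is no test. The 4 genes are shown because they differ in the direction they took after surgery. Trib3, Chac1 and Asns were higher at 5 days, and Slc7a11, which holds a pair of matches, was lower. Each line gives 30 bases on the gene's own strand, with the match in capitals.
Trib3 (chr2:152344028-152344057, minus strand, match at 14 to 21): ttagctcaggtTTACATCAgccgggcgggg
Chac1 (chr2:119351038-119351067, plus strand, match at -193 to -186): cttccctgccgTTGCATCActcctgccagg
Asns (chr6:7693214-7693243, minus strand, match at -23 to -16): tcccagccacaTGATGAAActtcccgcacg
Slc7a11, upstream match (chr3:50443661-50443690, minus strand, match at -66 to -59): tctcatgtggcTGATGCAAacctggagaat
Slc7a11, downstream match (chr3:50443642-50443671, minus strand, match at -47 to -40): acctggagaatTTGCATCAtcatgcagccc
The Trib3 and Chac1 matches and the downstream match of Slc7a11 are the reverse complement of the searched letters. These letters are not in the windows of Atf4, Ddit3, Psat1, Phgdh and Mthfd2. The antioxidant response core TGACNNNGC, searched in the same way, was in the windows of Asns and Phgdh and in 12.39% of all windows, and it did not overlap the matches above.

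Libraries held 7709815 to 9774343 gene counts at 0 h and 6207387 to 8682659 at 5 days. Levels below are normalised counts (CPM, counts relative to a library size scaled by TMM), and each change is the log2 fold change from 0 h to 5 days and its standard error (SE). Markers of the lens epithelium (Foxe3, Pax6, Pitx3, Cdh1, Cryaa, Cryab) were detected in both groups, with a summed level of 76850 to 93880 CPM at 0 h and 7381 to 21650 CPM at 5 days, where Pax6 was higher and the other 5 lower. The crystallins Cryaa (mean 62310 to 11190 CPM) and Cryab (19620 to 3107 CPM) made up most of that sum and of its drop. Means of the others went from 211.4 to 82.4 CPM for Foxe3, 651.5 to 790.8 for Pax6, 101.9 to 31.9 for Pitx3 and 462.9 to 139.3 for Cdh1. Other cell types' markers differed between the times as well. The summed level of 10 macrophage and monocyte markers was 15.58 to 31.95 CPM at 0 h and 482.4 to 680 CPM at 5 days, with Ccr2 at 0 counts at 0 h. For 5 neutrophil markers it was 0 to 0.329 and 15.3 to 27.2 CPM, with S100a8, S100a9, Retnlg and Cxcr2 at 0 counts at 0 h. For 4 fiber markers it was 10560 to 12210 CPM at 0 h and 434.5 to 1895 at 5 days, and for 6 photoreceptor markers 497.3 to 755.8 and 32.0 to 91.6. For 4 proliferation markers it was 96.6 to 140 and 74.3 to 114.2 CPM, and none of them passed the test. No tested marker of pigmented iris and ciliary epithelium or of cornea passed, and no red blood cell marker had counts enough to be tested. In pooled tissue, fewer cells of a type and less RNA per cell cannot be told apart, and the part of these cell types in the changes below was not tested.

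The 10 genes did not move in 1 direction. Atf4 and the stress and asparagine genes Trib3, Chac1 and Asns rose, the serine synthesis genes Psat1 and Phgdh fell 5-fold and 3.89-fold, and the transporter chains Slc7a5 and Slc7a11 fell less. Ddit3 and Mthfd2 did not pass the test. All 10 genes passed the low-count filter, and 4 were called higher and 4 lower at an adjusted p under 0.05 (edgeR's quasi-likelihood test, Benjamini-Hochberg over all tested genes). Trib3 (at most 0.596 CPM at 0 h) and Chac1 (at most 0.329 CPM at 0 h) passed that filter only through the 5 day libraries, where they were higher. Their upward calls and their separation between the times are therefore not independent of the filter. Over all 14676 tested genes 47.6% were called, 25.1% higher and 22.5% lower, so calls were frequent everywhere. Scaled by total library size, 62.9% of calls were upward in place of 52.7%, the median of all genes shifted by 0.13, and 5 of the 10 genes were higher and 3 lower. The 3 libraries of each time did not overlap for 9 of the 10 genes, against 58.1% of all tested genes. The median log2 fold change of the 10 genes was 0.36, and that of all tested genes was -0.01.

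**Figure D1:**
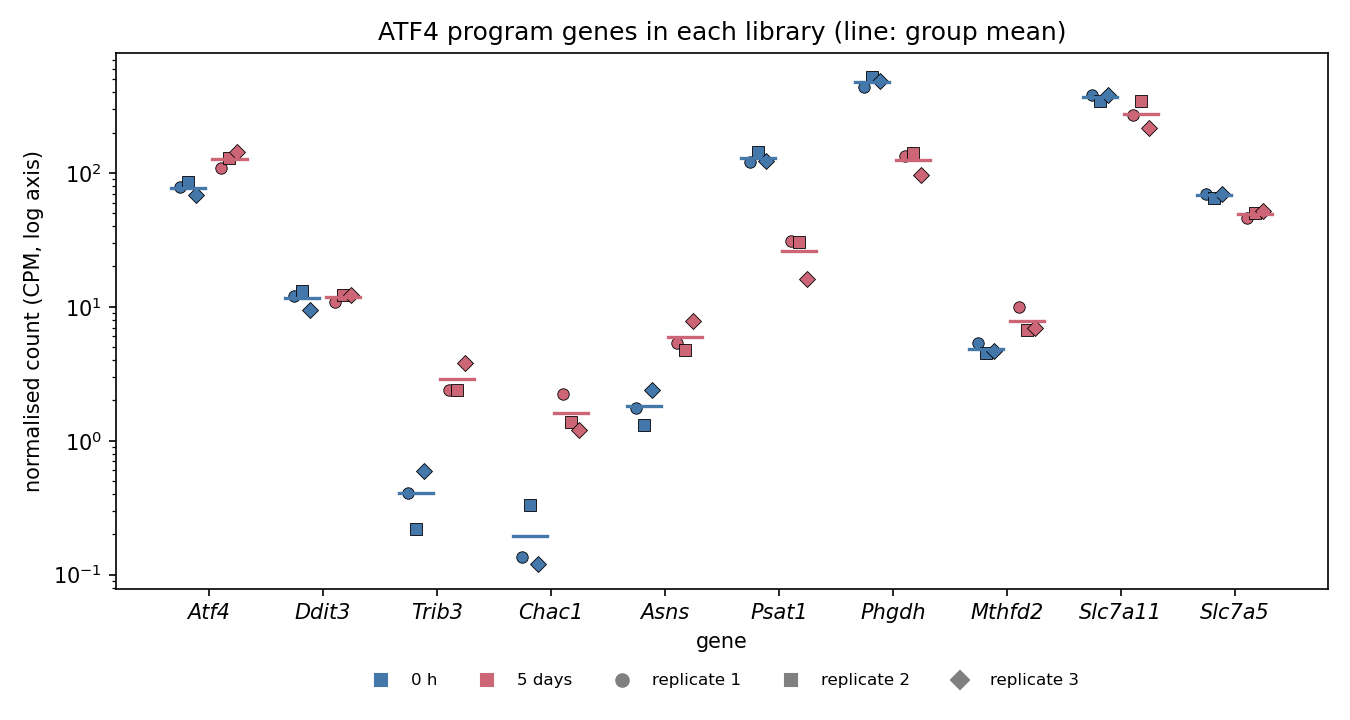
Normalised counts (CPM, log axis) of the 10 genes in each of the 6 libraries, with 0 h in blue, 5 days in red, a marker shape for each replicate number and a line at the group mean. The groups separate for every gene but Ddit3, upward for Atf4, Trib3, Chac1, Asns and Mthfd2 and downward for Psat1, Phgdh, Slc7a11 and Slc7a5.

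Atf4 (ENSMUSG00000042406) stood at 77.8, 85.6 and 68.2 CPM in the 3 libraries of 0 h and at 108.2, 129 and 143.8 CPM at 5 days. Every library of 5 days lay above every library of 0 h. The mean went from 77.2 ± 8.71 to 127 ± 17.9 CPM (SD, n = 3), a log2 fold change of 0.72 (SE 0.12) (edgeR quasi-likelihood test, adjusted p = 0.000452). This log2 fold change was higher than that of 80.2% of the tested genes, where every fall counts as lower.

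Trib3 (ENSMUSG00000032715) encodes a pseudokinase that ATF4 induces and that restrains ATF4 in turn. It had 3, 2 and 5 counts at 0 h, or 0.404, 0.219 and 0.596 CPM, and 15, 19 and 35 counts at 5 days, or 2.39, 2.39 and 3.83 CPM. The groups did not overlap, although the message was scarce at both times. Its log2 fold change was 2.80 (SE 0.55), a 6.95-fold rise (edgeR quasi-likelihood test, adjusted p = 0.00119).

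Chac1 (ENSMUSG00000027313), whose enzyme breaks down glutathione, had the fewest counts of the 10 genes. It had 1, 3 and 1 counts at 0 h and 14, 11 and 11 counts at 5 days, or 0.135, 0.329 and 0.119 CPM against 2.23, 1.38 and 1.2 CPM. The groups did not overlap, and the log2 fold change was 2.89 (SE 0.67) (edgeR quasi-likelihood test, adjusted p = 0.00345). With only 5 counts over the 0 h libraries its size is loosely set, and it was 3.48 without replicate 2 at 0 h.

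Ddit3 (ENSMUSG00000025408) encodes CHOP, the transcription factor associated with cell death in prolonged ER stress. Its level was 12.1, 13.1 and 9.42 CPM at 0 h and 10.8, 12.3 and 12.2 CPM at 5 days. The groups overlapped, and the log2 fold change was 0.03 (SE 0.20) (edgeR quasi-likelihood test, adjusted p = 0.917). Its sign turned without replicate 3 at 0 h (-0.10) and without replicate 3 at 5 days (-0.01). An annotated small gene that carries the same symbol and overlaps the 5′ part of Ddit3 had 0 counts in every library, and reads shared by both could have been set aside as ambiguous in counting.

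Asns (ENSMUSG00000029752), the asparagine synthetase, stood at 1.75, 1.32 and 2.38 CPM at 0 h and at 5.41, 4.77 and 7.77 CPM at 5 days. All 3 libraries of 5 days were higher than those of 0 h. The mean rose from 1.82 ± 0.537 to 5.99 ± 1.58 CPM (SD, n = 3), a log2 fold change of 1.72 (SE 0.38) (edgeR quasi-likelihood test, adjusted p = 0.00245). Among the 5 day libraries, replicate 3 had the highest level of Atf4, Trib3 and Asns, and the lowest of Chac1. The calls of Atf4, Trib3, Chac1 and Asns were kept when any single library was left out.

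Phgdh and Psat1 of serine synthesis fell. Phgdh (ENSMUSG00000053398) makes the first committed intermediate of serine from a product of glycolysis, and Psat1 (ENSMUSG00000024640) carries out the second step. Phgdh stood at 441, 516.6 and 485 CPM at 0 h and at 132.9, 141.2 and 97.1 CPM at 5 days. Psat1 stood at 120.4, 142.1 and 122.6 CPM at 0 h and at 31.2, 30.4 and 16.1 CPM at 5 days. For both genes the lowest library of 0 h was over 3 times the highest of 5 days, and replicate 3 at 5 days was the lowest.

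Phgdh fell by 1.96 on the log2 scale (SE 0.14), a level 3.89-fold lower (edgeR quasi-likelihood test, adjusted p = 3.7e-07). Psat1 fell by 2.32 (SE 0.20), a level 5-fold lower (edgeR quasi-likelihood test, adjusted p = 1.65e-06). Among all tested genes, 3.8% had a lower log2 fold change than Phgdh and 2.7% a lower one than Psat1. Without replicate 3 at 5 days the log2 fold changes were -1.82 for Phgdh and -2.07 for Psat1. The fiber and photoreceptor markers and 5 of the 6 lens epithelium markers given above fell in the same libraries. The part of these cell types in both changes was not tested. Reads of near-identical copies, as of pseudogenes, may be split or lost in counting for these and other genes.

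Psph, whose phosphatase completes serine synthesis, was not called, at 8.62 ± 0.178 CPM at 0 h and 8.32 ± 2.67 CPM at 5 days (SD, n = 3). Its log2 fold change was -0.07 (SE 0.26) (edgeR quasi-likelihood test, adjusted p = 0.858). It is named after its values were seen, to complete the branch.

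Mthfd2 (ENSMUSG00000005667), the mitochondrial folate enzyme that uses serine-derived carbon, stood at 5.39, 4.5 and 4.65 CPM at 0 h and 10, 6.66 and 6.9 CPM at 5 days. The groups did not overlap, but the log2 fold change of 0.69 (SE 0.28) missed the threshold (edgeR quasi-likelihood test, adjusted p = 0.0592). Scaled by total library size, Mthfd2 was called higher, at 0.81.

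Both transporter genes encode light chains that reach the membrane bound to a shared heavy chain, Slc3a2 (ENSMUSG00000010095). The Slc7a5 partner (LAT1) carries large neutral amino acids such as leucine, and the Slc7a11 partner (xCT) takes up cystine in exchange for glutamate. Slc7a5 (ENSMUSG00000040010) stood at 69.4, 64.5 and 69.5 CPM at 0 h and at 46.3, 49.7 and 51.8 CPM at 5 days. It fell by 0.458 on the log2 scale (SE 0.10) without overlap of the groups (edgeR quasi-likelihood test, adjusted p = 0.0024).

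Slc7a11 (ENSMUSG00000027737) stood at 380.4, 343.2 and 382.6 CPM at 0 h and at 270.1, 341.5 and 216.6 CPM at 5 days. The groups only just failed to overlap, since replicate 2 at 5 days was close to replicate 2 at 0 h. The log2 fold change was -0.42 (SE 0.15) (edgeR quasi-likelihood test, adjusted p = 0.0326). This call was lost with total library size (-0.29) and without any single library other than replicate 2 at 5 days, where the Slc7a11 log2 fold change was -0.28 to -0.47.

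Slc3a2 fell further than either of these light chains. Its level was 456.2, 504.9 and 500.9 CPM at 0 h and 303.5, 298 and 232.2 CPM at 5 days, a log2 fold change of -0.81 (SE 0.12) (edgeR quasi-likelihood test, adjusted p = 0.000137). Other light chains differed. Slc7a8 fell further, from a mean of 870.4 to 366.3 CPM, a log2 fold change of -1.25 (SE 0.17). Slc7a6 was not called, at -0.01 (SE 0.14), and Slc7a7 is given below. Slc7a8 and Slc7a6 are named after their values were seen. Ratios of raw counts within a library do not depend on scaling. Slc7a5 had 0.14 ± 0.0122 counts per Slc3a2 count at 0 h and 0.181 ± 0.0372 at 5 days (SD, n = 3). For Slc7a11 the ratio to Slc3a2 was 0.759 ± 0.0772 and 0.989 ± 0.137 (SD, n = 3).

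Neither ratio overlapped between the times (exact permutation test, two-sided p = 0.1 each, the smallest that 3 against 3 libraries can give). Psat1 per Phgdh count went from 0.267 ± 0.0124 to 0.205 ± 0.0356, also without overlap (exact permutation test, two-sided p = 0.1). Asns per Phgdh count went from 0.00381 ± 0.00119 to 0.0515 ± 0.0249, again without overlap (exact permutation test, two-sided p = 0.1). These ratios belong to 8 that were computed, chosen after values were seen, and their Benjamini-Hochberg adjusted p was 0.114. The ratio of Slc7a11 to Slc7a5 overlapped between the times, at 5.44 ± 0.101 and 5.63 ± 1.35 (SD, n = 3; exact permutation p of 1).

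**Figure D2:**
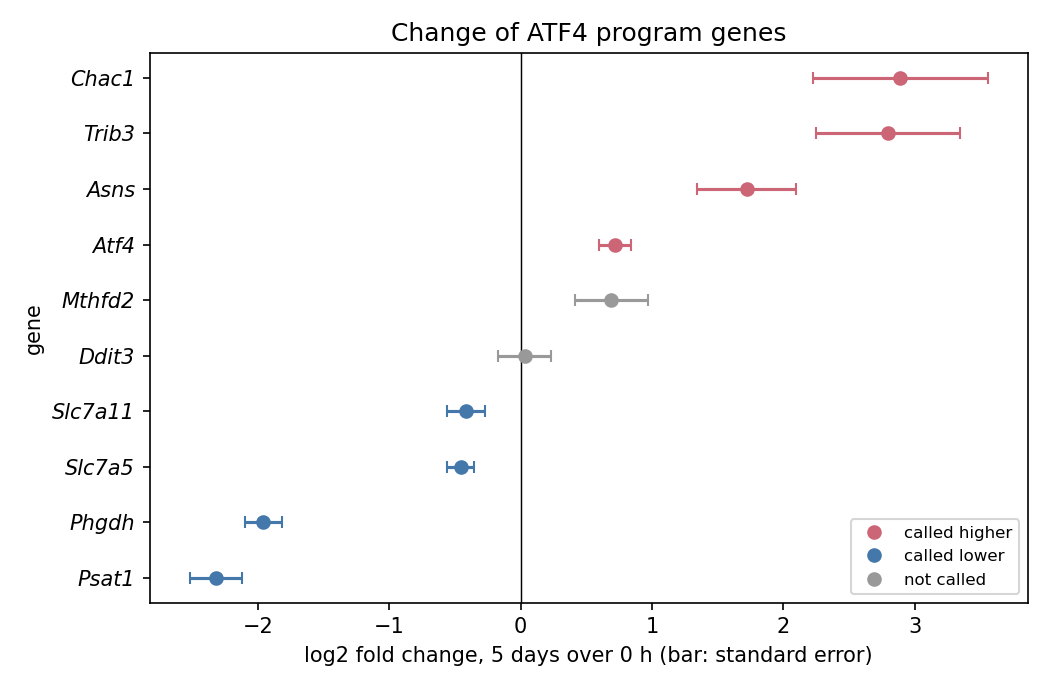
Log2 fold change of 5 days over 0 h for the 10 genes, with bars of 1 standard error, red for genes called higher, blue for lower and grey for not called. The order runs from Psat1 at -2.32 to Chac1 at 2.89, and the bars of the scarce genes Trib3 and Chac1 are the widest.

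Levels per kilobase of annotated exon allow the genes to be ranked against each other. At 0 h Phgdh stood far above the rest at 193.4 ± 15.3 CPM per kilobase (SD, n = 3). Atf4 (32.7 ± 3.69) and Psat1 (30.2 ± 2.81) followed and overlapped each other, then came Slc7a11 (26.5 ± 1.59), Slc7a5 (18.3 ± 0.767), Ddit3 (6.73 ± 1.1) and Mthfd2 (1.39 ± 0.136). Asns (0.664 ± 0.196), Trib3 (0.191 ± 0.0886) and Chac1 (0.119 ± 0.0715) were lowest, and the last pair overlapped.

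At 5 days Atf4 was at 53.9 ± 7.57 CPM per kilobase and Phgdh at 49.8 ± 9.41 (SD, n = 3), and their libraries overlapped. Slc7a11 (19.8 ± 4.5) and Slc7a5 (13.3 ± 0.746) came next. Psat1 had dropped to 6.09 ± 2, level with Ddit3 (6.87 ± 0.477) within their spread. Mthfd2 (2.25 ± 0.539), Asns (2.19 ± 0.578), Trib3 (1.35 ± 0.393) and Chac1 (0.98 ± 0.334) each overlapped the next in order. Lengths are the union of all annotated exons, 13922 bases for Slc7a11, so genes with long, rarely used exons can rank too low.

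Next came regulators, partners and feedback genes of the integrated stress response. Of 13 listed, all tested, 10 rose and 1 fell, where 25.1% of all tested genes were higher and 22.5% lower. Their median log2 fold change was 0.49 against -0.01 for all tested genes. Among the eIF2α kinases, Eif2ak3 (PERK, the ER stress sensor) rose from 31.4 ± 0.333 to 54.3 ± 7.9 CPM (SD, n = 3), a log2 fold change of 0.79 (SE 0.13). Eif2ak4 (GCN2, the sensor of uncharged tRNA) rose from 40.1 ± 4.79 to 71.2 ± 4.55 CPM (SD, n = 3), a log2 fold change of 0.83 (SE 0.12). Eif2ak2 (PKR, which senses double-stranded RNA) rose by 0.49 (SE 0.12), and the heme-regulated Eif2ak1 was not called, at 0.20 (SE 0.12), except with total library size (0.33). The gene of the kinases' substrate, Eif2s1, fell by 0.525 (SE 0.10).

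The phosphatase subunits that reverse the phosphorylation differed in their calls. Ppp1r15b, the constitutive one, rose by 0.51 (SE 0.10). Ppp1r15a (GADD34), the stress-induced one, stood at 27.7 ± 2.8 and 27.7 ± 2.98 CPM (SD, n = 3) and was not called, at -0.00 (SE 0.14). Whether those changes differ from each other was not tested. Cebpb, a C/EBP partner of ATF4 that is also abundant in activated macrophages, showed the largest rise of the list, at 3.00 (SE 0.25), from 6.96 ± 2.07 to 56.3 ± 16.3 CPM (SD, n = 3). The macrophage markers given above rose in the same libraries. Nupr1, a stress-induced chromatin protein, stood at 1271 ± 110.4 CPM at 0 h (SD, n = 3) and rose by 0.55 (SE 0.13).

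Among 12 other ATF4 targets of stress and growth, all tested, 6 rose and 1 fell, and the median was 0.44. The shares over all tested genes were 25.1% higher and 22.5% lower. Cdsn, the adhesion protein corneodesmosin known from cornified epidermis, rose most, from 2.66 ± 0.963 to 147.9 ± 49.4 CPM (SD, n = 3), a log2 fold change of 5.76 (SE 0.28). Its known role is not in stress signalling. Jdp2, a repressor that pairs with AP-1 and ATF factors, fell by 1.02 (SE 0.11). Xpot, the exporter of tRNA from the nucleus, rose by 0.31 (SE 0.10). Leaving out replicate 1 or 2 of 0 h, or 1 or 3 of 5 days, ended the Xpot call (0.24 to 0.31). Without replicate 3 at 5 days 2 genes of the list were lower in place of 1.

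Cytosolic aminoacyl-tRNA synthetases load amino acids onto tRNA. Of 20 listed 19 were tested, 6 rose and 1 fell, and the median log2 fold change was 0.18, where 25.1% of all tested genes were higher and 22.5% lower. Aars1, for alanine, rose most, from 45.2 ± 3.14 to 105.3 ± 8.5 CPM (SD, n = 3), a log2 fold change of 1.22 (SE 0.10). Sars1, for serine, rose by 0.30 (SE 0.10), a call that ended when replicate 1 or 3 of 0 h or 1 of 5 days was left out (0.23 to 0.28), with DESeq2 (0.31) and with no low-count filter (0.30). The count of 6 was 3 without replicate 1 at 0 h and 3 without replicate 3 at 0 h. With total library size it was 10, with none lower, so the number of calls in this list depends on scaling. The short motif TGATGNAA was in 5 of the 13 synthetase genes with a promoter window and in 3.97% of all windows. Of those 5 genes, 2 were called higher and 0 lower, a description without a test.

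**Figure D3:**
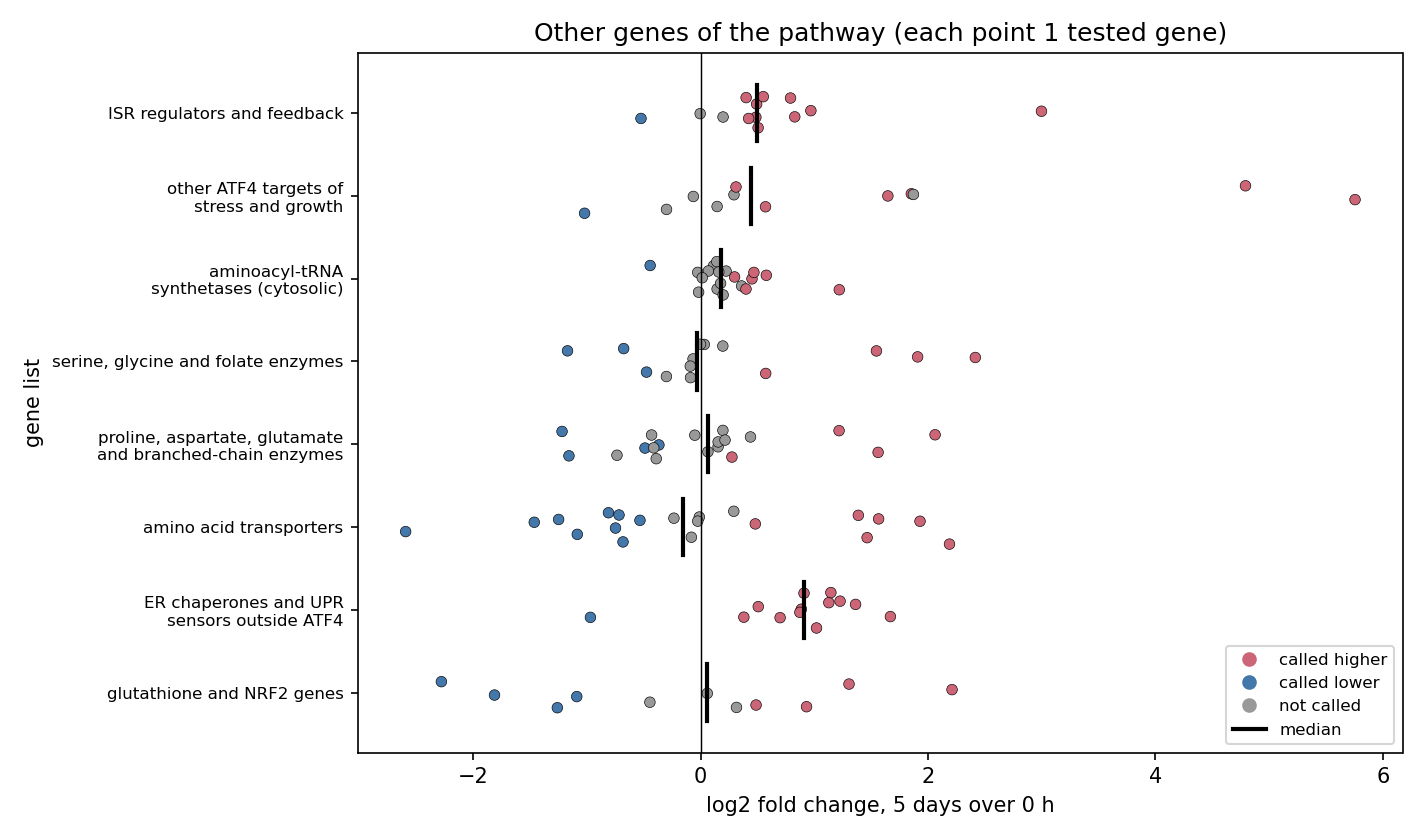
Log2 fold change of 5 days over 0 h for each tested gene of 8 lists of related genes, with red for genes called higher, blue for lower, grey for not called and a black line at the list's median. Medians run from -0.16 for amino acid transporters to 0.91 for ER chaperones and sensors, and most points of those ER genes lie above 0.

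Of 14 other enzymes of serine, glycine and folate metabolism, all tested, 4 rose and 3 fell, shares near the 25.1% and 22.5% of all tested genes. Their median log2 fold change was -0.03. Shmt2, which turns serine into glycine in mitochondria, fell from 112.6 ± 17.2 to 81 ± 8.06 CPM (SD, n = 3), a log2 fold change of -0.48 (SE 0.12). Gldc, of the glycine cleavage system, fell most, from 76.7 ± 6.3 to 33.8 ± 9.04 CPM (SD, n = 3), a log2 fold change of -1.17 (SE 0.16). Aldh1l2, a mitochondrial folate dehydrogenase and ATF4 target, rose from 4.83 ± 2.94 to 25.8 ± 8 CPM (SD, n = 3). Its log2 fold change of 2.42 (SE 0.35) was 3.03 without replicate 3 at 0 h, the highest library of that group for Aldh1l2. None of the 10 genes of this list with a promoter window held TGATGNAA.

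Of 19 genes for proline, aspartate, glutamate and branched-chain amino acids, all tested, 4 rose and 4 fell. These shares are near the 25.1% higher and 22.5% lower of all tested genes, and the median was 0.06. Pycr1, which completes mitochondrial proline synthesis, rose from 0.747 ± 0.226 to 3.19 ± 0.556 CPM (SD, n = 3), a log2 fold change of 2.06 (SE 0.46). Pycr1 passed the low-count filter only through its 5 day libraries. Prodh, which breaks proline down, fell by 1.22 (SE 0.18). Glul, the glutamine synthetase, fell by 0.367 (SE 0.11), a call that ended when replicate 2 or 3 of 0 h or 1 of 5 days was left out (-0.30 to -0.36) or total library size was used (-0.24). The count of 4 that rose was 2 without replicate 2 at 0 h.

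Amino acid transporters were the list with most falls. Of 23 listed 20 were tested, 9 fell and 6 rose, where 22.5% of all tested genes were lower and 25.1% higher. The median log2 fold change was -0.16. Slc7a2, a carrier of cationic amino acids, fell from 1171 ± 64.5 to 696.6 ± 142.7 CPM (SD, n = 3), a log2 fold change of -0.75 (SE 0.15). Slc1a1, a glutamate and cysteine carrier, fell most, from 4 ± 2.08 to 0.657 ± 0.339 CPM (SD, n = 3), a log2 fold change of -2.60 (SE 0.57). Slc1a1 passed the low-count filter only through its 0 h libraries. Slc38a2, a glutamine carrier that is itself a known ATF4 target, fell from 494.4 ± 9.05 to 179.3 ± 15.3 CPM (SD, n = 3), and is named after its values were seen. Among the 6 that rose, mean levels went from 43.5 to 119.9 CPM for Slc38a1 and from 43.4 to 128.5 CPM for Slc43a2. The Slc36a1 mean went from 8.45 to 32.4 CPM. These rises too are named after their values were seen.

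Slc7a7, a light chain known from macrophages as well as epithelia, showed the largest rise, from 2.69, 0.658 and 0 CPM at 0 h to 3.66, 5.78 and 5.37 CPM at 5 days. Slc7a7 passed the low-count filter only through its 5 day libraries. Its log2 fold change of 2.19 (SE 0.73) was 3.80 without replicate 1 at 0 h and 1.59 without replicate 3 at 0 h. Leaving out replicate 2 of 0 h (1.91) or of 5 days (2.06), or using DESeq2 (2.16), ended the call. The macrophage markers given above rose in the same libraries, and their part in this change was not tested.

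Most genes listed for the ER stress branches outside ATF4 rose. Of 13 tested, 12 rose and 1 fell, where 25.1% of all tested genes were higher and 22.5% lower, and the median was 0.91. The chaperone Hsp90b1 rose from 376 ± 13.7 to 688.5 ± 112.3 CPM (SD, n = 3), a log2 fold change of 0.87 (SE 0.12). Edem1, which passes misfolded glycoproteins to degradation, rose most, by 1.67 (SE 0.15). Herpud1, of the same degradation pathway, was the gene that fell, by 0.97 (SE 0.14), and it is the gene of this list whose window holds TGATGNAA.

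Of 11 glutathione and NRF2 genes, all tested, 4 rose and 4 fell, and the median was 0.06. The shares over all tested genes were 25.1% higher and 22.5% lower. Gss, the glutathione synthetase, fell most, from 208.3 ± 12 to 43 ± 14 CPM (SD, n = 3), a log2 fold change of -2.28 (SE 0.19). Gpx4, which uses glutathione to reduce lipid peroxides, fell from 215.6 ± 18.3 to 101.3 ± 8.6 CPM (SD, n = 3). Gsr, which regenerates reduced glutathione, rose most, by 2.21 (SE 0.15). The fiber and photoreceptor markers and 5 of the 6 lens epithelium markers given above fell in the same libraries as Gss and Gpx4. The part of these cell types was not tested.

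Every call in the paragraphs on lists rests on edgeR's quasi-likelihood test with adjustment over all tested genes. Lists and genes were chosen with earlier results of these data known, and no list was tested as a set. Over all lists and the 10 genes, each gene once, 20 of 101 genes with a promoter window held TGATGNAA, which is in 3.97% of all windows. Of those 20, 10 were called higher and 3 lower. Among the 81 without it, 35 were called higher and 20 lower, and some had too few counts to be tested. Over all tested genes 25.1% were higher and 22.5% lower, so these chosen genes were more often higher with or without the motif. The counts are a description without a test.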

How the data were processed

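RNA of 6 libraries of pooled lens capsules was measured as counts per Ensembl gene. The deposited counts are raw, and the submitters' processing notes name HISAT2, HTSeq, edgeR and build GRCm39. How HTSeq was set (strand, overlaps), tool versions and the annotation are not given in the sources used; overlapping and antisense genes are therefore uncertain. The library kit was a stranded total RNA kit, per the labels' protocols. HTSeq summary entries (32.26 to 42.55% of reads) were left out.

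Symbols came from GENCODE M21 by identifier, with RefSeq synonyms for renamed genes; 180 of 182 listed symbols matched, and Nars1 and Lim2 were not analysed here. Exon lengths came from GENCODE M21 (GRCm38), and promoter windows from RefSeq (GRCm38.p6). Genes were kept by edgeR's default filter, scaled with TMM and tested with its quasi-likelihood test (edgeR 4.0.16, R 4.3.3; common biological coefficient of variation 0.156). The SE is the log2 fold change divided by the square root of the F statistic. Other settings were DESeq2 size factors, total library size, TMM without crystallin, mitochondrial and ribosomal RNA genes, other filters, DESeq2 1.42.0, limma-voom (limma 3.58.1), replicate blocks and each library left out.

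Members and lists were chosen with earlier results of these data known. Named genes are the 10 genes and, from each list, the called gene of highest mean CPM over all libraries, largest rise and largest fall, with Slc3a2 and the eIF2α kinases and phosphatase subunits. One gene that this rule names is not reported here. Tables and plots used pandas 2.3.3 and matplotlib 3.10.9 under Python 3.11.15.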

Additional observations from a re-analysis of the deposited data

How the results depend on the processing

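Over the 15 other settings, the calls of Atf4, Trib3, Psat1, Phgdh and Slc7a5 kept their direction and side of the threshold, as did that of Chac1 in the 14 that tested it. The Psat1 log2 fold change ran from -2.48 to -1.98, that of Phgdh from -2.06 to -1.76 and that of Atf4 from 0.61 to 0.85. Asns missed the threshold in 1 setting, Mthfd2 passed it in 1, and Slc7a11 missed it in 6. The Ddit3 value ran from -0.10 to 0.13 when single libraries were left out, below 0 in the absence of replicate 3 of 0 h (-0.10) or of 5 days (-0.01). Ppp1r15a turned to 0.01 with DESeq2 size factors, 0.12 with total library size, 0.01 with TMM without abundant genes and 0.01 with DESeq2, and ran from -0.08 to 0.08 when single libraries were left out. Leaving out single libraries gave 3 to 7 synthetases higher, 1 to 2 other ATF4 targets lower and 2 to 4 proline and glutamate genes higher. Total library size gave 10 synthetases higher and 0 lower. The longer motif TGATGNAAC matched 2 of the 10 genes, Chac1 and Asns, in place of 4.

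Deviations of same-numbered libraries from their group means had correlations of 0.071, -0.116 and 0.025 over 11328 genes. Other pairings ran from -0.136 to 0.089, so this check cannot tell whether pools share mice. The labels do not say either, and the numbers are not taken as pairs. A replicate block by either kind of number leaves few degrees of freedom. With a replicate block by title number, 3550 genes were called higher and 3188 lower, and 4 of the 10 genes each way. With a replicate block by library name number, 3164 and 2604 genes were called. There, 6 regulators were higher, 2 other ATF4 targets lower, 2 proline and glutamate genes higher and 2 lower, and 3 transporters higher. That block also ended the calls of Asns (1.29), Xpot (0.22), Glul (-0.31), Slc7a7 (2.16) and Eif2ak2 (0.40). The cause of these differences was not tested. Depth limits Chac1 and Trib3 most, with 5 and 10 counts over the 0 h libraries.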
